A study of Homo sapiens with 5 samples.

Results

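The baseline transcriptome of HEK293-vector cells was described from the 3 arrays labelled as empty pcDNA4 vector, out of 5 arrays in all. They were chosen by their titles alone, and no contrast between groups entered the choice. HEK293 is an established line made from human embryonic kidney cells by transformation with adenovirus DNA. The HEK293-vector line carries stably integrated empty pcDNA4, and its 3 biological replicates were independent cultures of this single line, so the spread given here is the spread between cultures. The other 2 arrays held RNA of HEK293-PRL-1, a second stable HEK293 line in which pcDNA4 carries PRL-1, a small tyrosine phosphatase. Both lines were grown in DMEM with fetal bovine serum, penicillin and streptomycin.

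HEK293 cells grow as adherent cells, and their origin within the embryonic kidney has long been debated, since such tissue also contains fibroblasts, neural crest derivatives and cells of the neighbouring adrenal gland. The transcripts of a cell line can be read against lists of genes that mark a lineage, such as the transcription factors of the developing nephron, the filaments of neurons or the keratins of epithelia. They can also be read against genes that most dividing cells use, such as the enzymes of glycolysis. Such lists were examined in turn, from lineage to metabolism.

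The unit was the MAS5 signal, an intensity on a linear scale that is set so that every array has the same trimmed mean of 500. A gene was represented by its brightest probe set, and was called high at a mean signal of 1000 or more over the 3 arrays and moderate from 100 to 1000. It was called low where every signal of each of its probe sets was under 100, and the remaining genes, with a mean under 100 and some signal of 100 or more, were kept apart as mixed. Probes differ in brightness, so the classes and any order of genes by signal describe probe sets and not amounts of RNA. Of 27 control probe sets for Bacillus transcripts, which HEK293 cells do not make, 3 reached 100 on a vector array and the highest signal was 203, so a moderate signal between 100 and about 200 lies in the range of the background. Where 3 signals are given for a gene, they are those of replicates 1, 2 and 3 in this order, and means are given ± SD (n = 3).

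Replicate 3 stood somewhat apart from the other cultures. Over genes with a mean signal of 100 or more, log2 signals correlated at 0.979 between replicates 1 and 2, and at 0.961 and 0.963 between replicate 3 and these 2 arrays, across genes that are not independent of each other. Of all probe sets, 42.9%, 42.4% and 37.6% lay under 100 on the 3 arrays, and the median signals were 135, 138 and 166. Over the whole array, 4883 of 8720 moderate genes were highest on replicate 3, and 2897 of 5356 high genes were lowest there. Such an order of arrays is therefore common, and is not particular to the genes for which it is given below. Genes whose signal on replicate 3 differed most are described with the spread below.

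Over the whole array, 5356 of 19775 genes were high, which is 27.1%. A further 44.1% were moderate, 6.58% were mixed and 22.2% were low. The 44 lists held 1293 genes, of which 1161 had a probe set in the annotation used here. Of these 1161 genes, 272 were high, 536 moderate, 84 mixed and 269 low, and 342 of the moderate genes had a mean of 200 or more. The lists differed widely. Of 252 metabolic genes, 128 were high and 32 low, whereas of 137 lineage genes 17 were high and 50 low. The other categories were 80 kidney genes (7 high, 24 low), 330 receptor genes (41 high, 83 low), 173 neuronal genes (30 high, 43 low), 126 adhesion genes (27 high, 23 low) and 87 epithelial genes (25 high, 23 low).

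**Figure D1:**
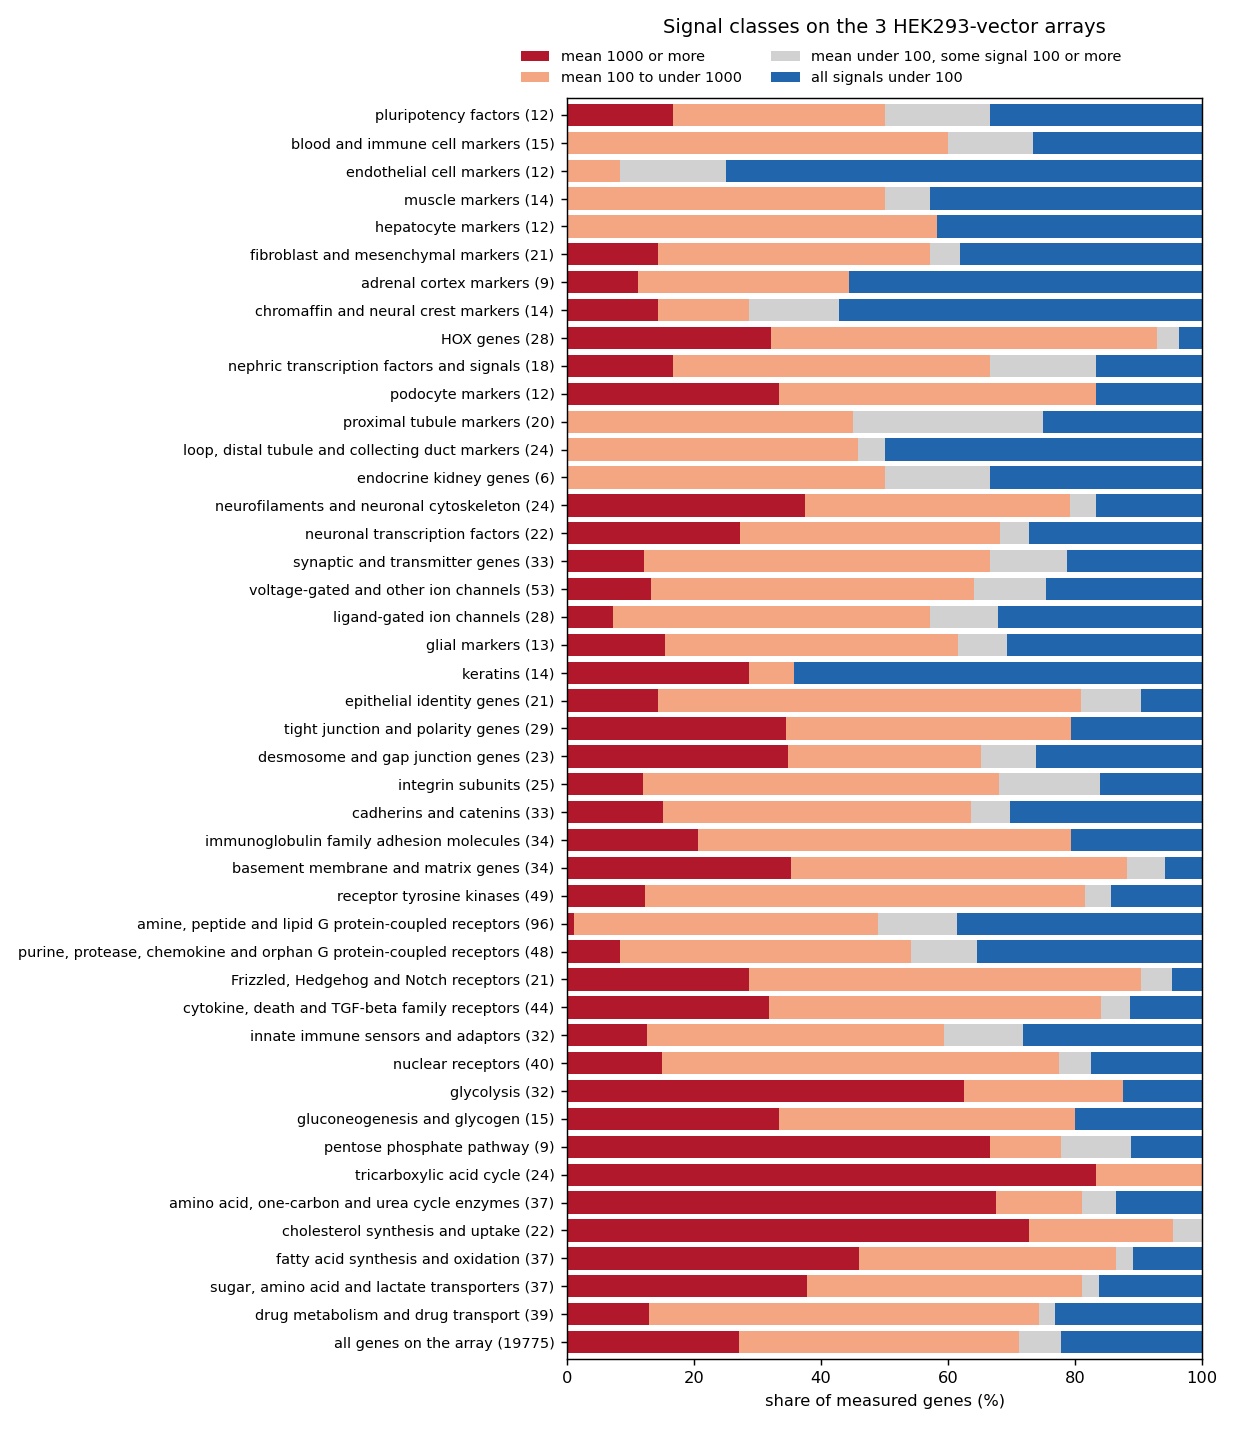
Share of the measured genes of each list (x axis, percent, number of measured genes in brackets) that were high, moderate, mixed or low on the 3 HEK293-vector arrays, with all genes of the array in the bottom bar. The tricarboxylic acid cycle held the largest share of high genes among these lists (20 of 24), and the endothelial markers the largest share of low genes (9 of 12).

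Markers of other lineages were examined first, since they bear on what the labelled cells are. RNA of whole cultures was hybridized, so a low signal in all cells and a higher signal in a few of them cannot be told apart. Among 12 pluripotency genes, 2 were high, 4 moderate, 2 mixed and 4 low. LIN28B, an RNA-binding protein that blocks maturation of let-7 microRNAs, gave 5827, 5117 and 3624 (mean 4856 ± 1125). Its signal was lowest on replicate 3 and the ratio of the highest to the lowest array was 1.61. SOX2, a transcription factor of stem cells and of neural progenitors, gave 1139, 1103 and 902 (mean 1048 ± 128) and was high by its mean, with replicate 3 under 1000. DNMT3B, a de novo DNA methyltransferase, was moderate at 783, 757 and 750.2, nearly the same on all arrays. NANOG, a core factor of embryonic stem cells, was low at 7.41, 6.07 and 20.6. POU5F1 was not in the annotation used here.

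None of the blood, endothelial, muscle or hepatocyte markers was high, but many were moderate. Of 15 blood and immune markers 9 were moderate and 4 low, and of 14 muscle markers 7 were moderate and 6 low. Of 12 hepatocyte markers 7 were moderate and 5 low. Over all genes 44.1% were moderate and 22.2% low. Of 12 endothelial markers 9 were low, and CDH5, the cadherin of endothelial junctions, gave 3.79, 9.43 and 11.5. PTPRC, which encodes the leukocyte antigen CD45, gave 63.4, 15.03 and 80.9 (mean 53.1 ± 34.1), and the monocyte marker CD14 gave 7.6, 11.6 and 27.4. All 3 genes stayed under 100 in every culture. In muscle the master regulator MYOD1 gave 21.2, 16.2 and 37.8 and the creatine kinase CKM gave 7.64, 16.99 and 21.1. Among hepatocyte markers the serum albumin gene ALB gave 61.2, 65.8 and 55.7 (mean 60.9 ± 5.04) and the fibrinogen chain FGB gave 62.2, 65.04 and 16.4. These genes were low too.

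Some genes that mark such cell types nevertheless had a moderate signal. The haemoglobin gene HBB gave 460.3, 455 and 719 and the B cell gene CD79A gave 444, 400.1 and 419.7. CD3E, a chain of the T cell receptor complex, gave 169, 267 and 260.3. These 3 genes lay above the highest Bacillus control on at least 2 of the 3 arrays, while PTPRC was low. PECAM1, an adhesion molecule of endothelium and platelets, gave 451, 425 and 615, and only 2 of its 5 probe sets had a mean of 100 or more. CYP3A4, a drug-oxidizing enzyme of liver, gave 467, 463 and 765 and was highest on replicate 3. Of the probe sets of HBB, 3 of 4 had a mean of 100 or more, and for CYP3A4 2 of 5. Their lowest probe sets had means of 16.9 and 13.4. The signals given for both genes come from probe sets marked as shared (_x_at). Among muscle markers ACTA2 gave 689, 600 and 889 and ACTC1 gave 246, 369 and 513.

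Mesenchymal genes fell in different classes. Of 21 measured, 3 were high (14.3%), 9 moderate, 1 mixed and 8 low (38.1%). Over all genes 27.1% were high and 22.2% low. Vimentin (VIM), the intermediate filament of mesenchymal cells and of many cultured cells, gave 16971, 18340.3 and 23976 (mean 19762 ± 3712). The transcriptional repressor ZEB1 gave 1252, 1375 and 1188. Both were high in each culture. Fibronectin (FN1) gave 664, 875 and 1524, and only replicate 3 passed 1000. The collagen chain COL1A1 gave 815, 779 and 1048, again highest on replicate 3, while COL3A1 gave 86.7, 86.4 and 124 and was mixed. SPARC, a matrix glycoprotein of fibroblasts, was low at 40.3, 42.9 and 12.9.

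Genes of the adrenal gland and of the neural crest were examined because adrenal tissue lies next to the kidney. Of 9 adrenal cortex genes, 1 was high, 3 moderate and 5 low. The low genes included the steroidogenic regulator NR5A1 (60.7, 82.3 and 80.6) and the cholesterol carrier STAR (14.7, 8.65 and 53.7). The side-chain cleavage enzyme CYP11A1 (59.6, 7.7 and 53.5) was low too. MRAP was moderate at 216, 246 and 288, above the Bacillus controls on all arrays. The 1 high gene was FDX1 at 2190.1, 2294 and 2018, an electron donor that mitochondria of many cells contain. Of 14 genes of chromaffin cells and neural crest, 2 were high, 2 moderate, 2 mixed and 8 low. TH, the first enzyme of catecholamine synthesis, gave 9.98, 34.2 and 10.9, and DBH, a later enzyme of this route, gave 34.01, 16.7 and 41.3. The storage protein CHGA gave 33.8, 93.2 and 76.2 and was low as well. PNMT, another enzyme of catecholamine synthesis, was moderate at 256, 221 and 268, above the Bacillus controls on all arrays. The 2 high genes were the transcription factors GATA3 and TFAP2A, and TFAP2A gave 2506, 2935 and 2051. Neither is restricted to these cells.

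HOX genes, which record the position of a cell along the body axis, were mostly high or moderate. Of 39 listed genes 28 were measured. The others, HOXD3 and most of the HOXA genes, were not in the annotation used here. Of the 28, 9 were high (32.1%), 17 moderate, 1 mixed and 1 low. Over all genes 27.1% were high, 44.1% moderate and 22.2% low. The high genes included HOXD10 (2930.0, 2854 and 2831), HOXB2 (2960.2, 2843 and 2583) and HOXC6 (2458, 2638 and 2432). Their highest and lowest arrays differed by a ratio of at most 1.15. Others varied between cultures. HOXB6 gave 2025, 1816 and 705 and HOXC13 gave 522, 357 and 144, and both were lowest on replicate 3. The low gene was HOXD12, named here after its values were seen, at 6.57, 4.33 and 5.79.

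Kidney genes bear directly on the label of the line. Nephrons form when the ureteric bud induces the metanephric mesenchyme, under factors such as PAX2, PAX8, SIX2, WT1 and SALL1. Of 18 genes of this group, 3 were high, 9 moderate, 3 mixed and 3 low. PAX8, a paired-box factor of the nephric lineage, gave 1577, 1629 and 2092 (mean 1766 ± 284). It was high in all cultures on its brightest probe set, but only 2 of its 8 probe sets had a mean of 100 or more, and the geometric mean over all 8 was 77.1. GATA3, a factor of the nephric duct and collecting system, gave 2953, 2832 and 3001 (mean 2929 ± 87.1) on its brightest probe set, and 3 of its 3 probe sets had a mean of 100 or more. The transcriptional cofactor EYA4 gave 1419.7, 1511 and 1338. These 3 genes differed little between cultures, with a ratio of highest to lowest array of at most 1.33.

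Of the other nephric genes, 9 were moderate, 3 mixed and 3 low. SALL1, a zinc finger factor of the metanephric mesenchyme, gave 887, 774 and 679. SIX2, which keeps nephron progenitors undifferentiated, gave 479, 339.6 and 569 (mean 463 ± 116). WT1, a factor of progenitors and podocytes, gave 505, 456 and 401. SALL1 and WT1 were highest on replicate 1 and SIX2 on replicate 3. PAX2 gave 365, 308 and 488 (mean 387 ± 92.3), with all arrays above the Bacillus controls. RET, the receptor through which the ureteric bud is attracted, gave 382, 542 and 658, and its co-receptor GFRA1 gave 209.6, 381 and 322. LHX1, needed for the nephric duct, gave 104, 74.7 and 109 and was mixed. OSR1 (49.7, 85 and 114) and MEOX1 (92.2, 39.4 and 101) were mixed too. The low genes were WNT4 (25.7, 22.4 and 25.8), WNT9B (98.5, 27.6 and 17.9) and WNT11 (11.8, 22.1 and 15.4).

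Podocyte genes fell in different classes. Of 12 measured, 4 were high (33.3%), 6 moderate and 2 low (16.7%). Over all genes 27.1% were high and 22.2% low, so these shares were near those of the array. PTPRO, a receptor-type tyrosine phosphatase of the podocyte surface, gave 15672, 18404 and 26548, though 1 of its 3 probe sets carried that signal. The actin cross-linker ACTN4 gave 3620.2, 3605 and 4996, and the adaptor CD2AP gave 3376, 3648 and 2716. Podocalyxin (PODXL), a sialomucin that also marks stem cells and endothelium, gave 1252, 1024 and 1173 (mean 1149 ± 116). These 4 genes were high on each array. Nephrin (NPHS1), the defining protein of the slit diaphragm, was low at 5.9, 12.5 and 3.999. Nephrin was thus under 100 throughout, while 4 other members of the list were high.

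No gene of the tubule segments was high. Of 20 proximal tubule genes 9 were moderate, 6 mixed and 5 low. The endocytic receptor megalin (LRP2) gave 348, 406 and 369 (mean 374 ± 29.5), and the bicarbonate cotransporter SLC4A4 gave 625, 659 and 564. Both were stable, with ratios of 1.17 between the highest and the lowest array. In contrast the phosphate transporter SLC34A1 was low at 76.8, 87.03 and 75.1. The water channel AQP1 gave 35.6, 57.2 and 147 and cubilin (CUBN), the partner of megalin, gave 68.5, 37.02 and 185. Both crossed 100 on replicate 3 only.

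Of 24 genes of the loop, the distal tubule and the collecting duct, 11 were moderate, 1 mixed and 12 low. The loop cotransporter SLC12A1 was low at 35.9, 29.5 and 85.7. Its distal homologue SLC12A3 gave 143, 185 and 264 and the collecting duct water channel AQP2 gave 217, 279 and 372. Each had 1 of 3 probe sets with a mean of 100 or more, and each was highest on replicate 3. GATA2 gave 616, 698 and 608, above the Bacillus controls in all cultures. ATP6V0D2, a subunit of the proton pump of intercalated cells, gave 172, 615 and 584, a ratio of 3.58. Erythropoietin (EPO) gave 17.1, 59.2 and 109 and was mixed, while UMOD was not in the annotation used here.

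**Figure D2:**
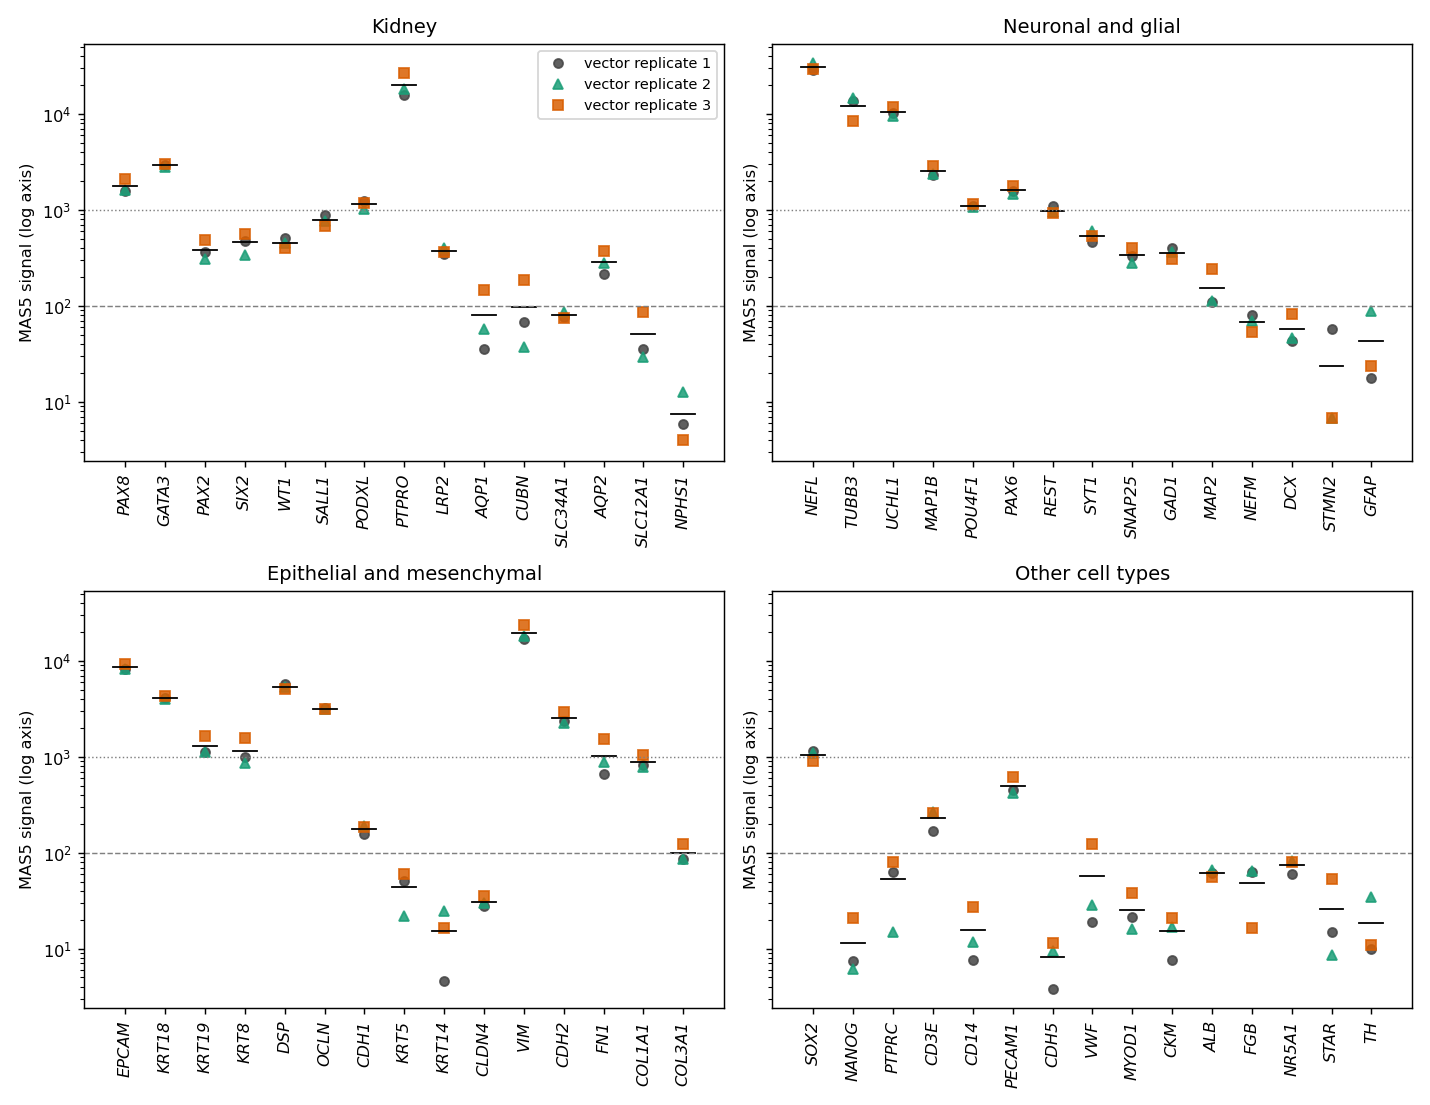
MAS5 signal (y axis, log scale) of marker genes on HEK293-vector replicates 1, 2 and 3 (symbols), with the mean as a bar and the limits of 100 (dashed) and 1000 (dotted), for kidney, neuronal and glial, epithelial and mesenchymal genes and genes of other cell types. PAX8 and GATA3 lie above 1000 and NPHS1 under 100 on each array, and NEFL lies above 1000 while NEFM lies under 100.

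Neuronal genes fell in different classes, with 17.3% high and 24.9% low, against 27.1% and 22.2% of all genes. Neurons carry intermediate filaments built from a light, a medium and a heavy chain, and particular tubulins. Of 24 genes of the neuronal cytoskeleton, 9 were high, 10 moderate, 1 mixed and 4 low. The neurofilament light chain NEFL gave 28915, 34189.6 and 29656 (mean 30920.3 ± 2855), and 3 of its 3 probe sets had a mean of 100 or more. The medium chain NEFM, in contrast, gave 80.2, 70.01 and 53.9 (mean 68.05 ± 13.2), and the heavy chain NEFH gave 33.3, 54.4 and 59.8. The light chain was thus high and its partner chains low in every culture. Alpha-internexin (INA) and peripherin (PRPH), which can also join such filaments, were moderate at 749, 547 and 514 and 495, 408 and 590.1.

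The beta-tubulin TUBB3, widely used as a neuronal marker, gave 13796, 14560.5 and 8404 (mean 12254 ± 3355). TUBB2A gave 4868, 4594 and 2506 and TUBB2B gave 6946, 7422 and 5450.3. All 3 tubulins were high in each culture and lowest on replicate 3. The ubiquitin hydrolase UCHL1 gave 10288, 9661 and 11878. MAP2, a dendritic microtubule protein, gave 110.5, 111 and 245, with replicate 3 alone above 200. Doublecortin (DCX), a marker of migrating neurons, was low at 42.6, 46.5 and 82.8, and STMN2, a growth cone protein, was low at 58.1, 6.85 and 6.78.

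Of 22 neuronal transcription factors, 6 were high, 9 moderate, 1 mixed and 6 low. SOX4, an HMG-box factor of differentiating progenitors, gave 8877, 9441 and 9217 (mean 9178 ± 284). The zinc finger factor ZIC2 gave 4272, 4006 and 3521, and PAX6, a factor of eye and forebrain progenitors, gave 1572, 1469 and 1771. The sensory neuron factor POU4F1 gave 1106, 1066 and 1151. These 4 factors differed between arrays by ratios of at most 1.21. REST, which represses neuronal genes in other cells, gave 1094, 944 and 923 and fell just under the limit of 1000. RCOR1, a corepressor that REST recruits, gave 1231, 1189.5 and 1098 on the brighter of its 2 probe sets. ONECUT2 gave 751, 781 and 1627 and was high through replicate 3 only.

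Among 33 synaptic and transmitter genes, 4 were high, 18 moderate, 4 mixed and 7 low. The high genes included VAMP3 (4913, 4772 and 4385) and SNAP23 (2279, 2035 and 2089), SNARE proteins that most cells use for membrane fusion. HOMER1, a scaffold of the postsynaptic density, gave 2186, 2099 and 2009.7, and the presynaptic adhesion protein NRXN3 gave 1246, 1042 and 1005. The forms that neurons use for transmitter release were moderate. SNAP25 gave 330.1, 279.5 and 403 (mean 338 ± 62.2), and the calcium sensor SYT1 gave 469, 599 and 533. Synapsin (SYN1) gave 235, 77.3 and 188 and was above 203 on replicate 1 only. GAD1, which makes GABA, gave 401, 363 and 306, with all arrays in the moderate range. The vesicular glutamate transporter SLC17A6 was low at 36.7, 12.1 and 70.5.

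Ion channels were mostly moderate or low. Of 53 voltage-gated and other channels, 7 were high (13.2%), 27 moderate, 6 mixed and 13 low (24.5%). Over all genes 27.1% were high, 44.1% moderate and 22.2% low, so the low share was near that of the array. VDAC1, which forms the pore of the outer mitochondrial membrane, gave 15928, 16739 and 13353. PIEZO1, a mechanically gated cation channel, gave 1737, 1633 and 1731, and the potassium channel KCNK1 gave 1603, 1689 and 1742. The scramblase ANO6 gave 1537, 1425 and 1669. These channels were high in every culture. ASIC1, a proton-gated sodium channel, gave 781, 1123 and 945, and the cation channel TRPC1 gave 620.1, 639.7 and 648. Of 28 ligand-gated channels, 2 were high, 14 moderate, 3 mixed and 9 low. The nicotinic subunit CHRNA5 gave 1426, 1232 and 1481 and the ATP-gated channel P2RX5 gave 1203, 1283 and 977.

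Of 13 glial genes, 2 were high, 6 moderate, 1 mixed and 4 low. CNP, an enzyme of myelinating cells that others also contain, gave 1648, 1415 and 1599, and the glutamate transporter SLC1A3 gave 1535, 1559 and 1399. The astrocyte filament GFAP was low at 17.7, 88.3 and 23.7. The oligodendrocyte factor OLIG2 gave 217, 230.4 and 175, at the upper edge of the Bacillus controls.

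Epithelial genes were examined by their roles, from keratins and identity factors to junctions. Simple epithelia contain KRT8, KRT18 and KRT19, and the basal layer of stratified epithelia contains KRT5 and KRT14. Of 14 keratin genes, 4 were high, 1 moderate and 9 low. KRT18 gave 4062, 3981 and 4339.9 (mean 4128 ± 188), and its partner KRT8 gave 999, 867 and 1583. KRT8 passed 1000 on replicate 3 alone and was high by its mean. KRT19 gave 1119, 1119 and 1638. KRT5 and KRT14 were low at 50.5, 21.7 and 60.1 and 4.55, 24.6 and 16.2. The remaining high member was KRT10 at 4592, 5007 and 3704, a keratin of upper epidermis, for which 3 of its 3 probe sets had a mean of 100 or more.

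Among 21 genes of epithelial identity, 3 were high, 14 moderate, 2 mixed and 2 low. The adhesion molecule EPCAM gave 8293, 8272 and 9359 (mean 8641 ± 621). MAL2, a protein of apical transport, gave 1713, 1558 and 1747, and the lipoprotein receptor LSR of tricellular junctions gave 1075, 1030.0 and 1005. E-cadherin (CDH1), the main adhesion molecule of epithelia, gave 158, 188 and 186 (mean 178 ± 16.8) and lay under 203 on all arrays. GRHL2, a factor that maintains the epithelial state, gave 121, 82.01 and 119. EPCAM was thus high, while CDH1 and GRHL2 were within the range of the Bacillus controls.

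Of 29 genes of tight junctions and polarity, 10 were high, 13 moderate and 6 low. The coxsackievirus receptor CXADR gave 5477, 5754 and 4727, occludin (OCLN) gave 3227, 3139 and 3175 (mean 3180.4 ± 43.9), and the scaffold TJP1 gave 3044, 2943 and 2518. They were high in each culture. Claudin-4 (CLDN4) was low at 27.7, 29.7 and 35, and claudin-1 (CLDN1) was moderate at 407, 523 and 754. Of 23 genes of desmosomes and gap junctions, 8 were high, 7 moderate, 2 mixed and 6 low. Desmoplakin (DSP), the linker of desmosomes to keratin, gave 5752, 5414 and 5046 (mean 5404 ± 353). The desmosomal cadherin DSG2 gave 3091, 3242 and 3840.0, and the connexin GJA1 gave 3895, 3684 and 2508. GJA1 was lowest on replicate 3.

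Adhesion genes covered integrins, cadherins, immunoglobulin-type molecules and the matrix. Of 25 integrin subunits, 3 were high, 14 moderate, 4 mixed and 4 low. The common beta chain ITGB1 gave 12216, 12928 and 12986 (mean 12710.1 ± 429). ITGAV, a chain of receptors for vitronectin and fibronectin, gave 1411, 1375 and 1276, and ITGAE, the alpha chain of an E-cadherin receptor of lymphocytes, gave 6733, 6796 and 5177. The laminin receptor chain ITGA6 gave 1012, 928 and 1043, just under the limit. ITGB5, a partner of ITGAV, gave 583, 634 and 282, and its signal on replicate 3 was the lowest.

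Of 33 cadherins and catenins, 5 were high, 16 moderate, 2 mixed and 10 low. N-cadherin (CDH2) gave 2347, 2266 and 2939 (mean 2517 ± 367). CDH2 was thus high in each culture, while CDH1 lay under the highest Bacillus control signal of 203. Beta-catenin (CTNNB1) gave 6978, 7208 and 4943, and alpha-catenin (CTNNA1) gave 4076, 4191 and 4455. CTNNB1 was lowest on replicate 3 and CTNNA1 highest there. The protocadherin PCDH7 gave 1247, 1151 and 881, and the large cadherin FAT1 gave 1166, 1228 and 1460.0.

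Of 34 adhesion molecules with immunoglobulin domains, 7 were high, 20 moderate and 7 low. CADM1 gave 3866, 3786 and 3285, ALCAM gave 3075, 2784 and 2187, and the guidance receptors ROBO1 and UNC5B gave 2283, 2168 and 1711 and 2206, 2212 and 2362. NCAM1, an adhesion molecule of neurons and of embryonic kidney, was moderate at 761, 755 and 1076 (mean 864 ± 184). Contactin-1 (CNTN1) gave 780.1, 830.0 and 785, nearly equal on the arrays. L1CAM, a neural adhesion molecule that is also in the collecting duct, was low at 75.6, 93.3 and 27.6, and ICAM1, an inflammatory adhesion molecule, gave 278, 192 and 278.

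The matrix list held the largest share of high genes among the adhesion lists, 12 of 34 (35.3%), with 18 moderate, 2 mixed and 2 low. Over all genes 27.1% were high. The integrin, cadherin and immunoglobulin lists lay below that share, at 12%, 15.2% and 20.6%. The proteoglycan versican (VCAN) gave 3533, 3396 and 3449 (mean 3459 ± 69.2). The laminin chain LAMC1 gave 3402, 2818 and 3001 and LAMB1 gave 2142, 2229 and 2382, and the collagen COL4A1 gave 2205, 2077 and 1813. Nidogen (NID1), which links laminin to this collagen, gave 3151, 2929 and 2627. These basement membrane genes were high in all cultures, with ratios of at most 1.22. LAMB2, the beta chain of the mature glomerular membrane, was moderate at 270.3, 203 and 363.

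Receptors were the largest category, and most were moderate or low. Of all receptor genes 12.4% were high and 25.2% low, against 27.1% and 22.2% of all genes. Of 49 receptor tyrosine kinases, 6 were high, 34 moderate, 2 mixed and 7 low. The insulin-like growth factor receptor IGF1R gave 2233, 2347 and 3150.2 (mean 2577 ± 499.8), and the hepatocyte growth factor receptor MET gave 1808, 1707 and 1479.7. ERBB2 gave 1009, 1126 and 1260.1 and EPHA7, an ephrin receptor, gave 2771, 2676 and 1845. These receptors were high in all cultures. The epidermal growth factor receptor EGFR was moderate at 414, 408 and 809 (mean 543 ± 229.7) and was highest on replicate 3. FGFR1 gave 808, 779 and 822, and FGFR3 gave 1065, 993 and 573, lowest on replicate 3.

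G protein-coupled receptors held few high genes. Of 96 receptors for amines, peptides and lipids, 1 was high, 46 moderate, 12 mixed and 37 low. The high gene was LPAR3, a receptor for lysophosphatidic acid, at 1672, 1306 and 1855 (mean 1611 ± 279.5). The muscarinic receptor CHRM3, long studied as an endogenous calcium-coupled receptor of these cells, gave 159.7, 244 and 202 (mean 202 ± 42.3) and overlapped the range of the controls. Of 48 receptors for purines, proteases, chemokines and orphan receptors, 4 were high, 22 moderate, 5 mixed and 17 low. The latrophilin ADGRL1 gave 2285, 2476 and 1886, the thrombin receptor F2R gave 1425, 1401 and 1282, and the adenosine receptor ADORA2B gave 1032, 1154 and 920.1. Among nucleotide receptors P2RY1 was moderate at 307, 344 and 220.2 and P2RY2 low at 25.7, 37.1 and 27.2. The chemokine receptor CXCR4 gave 610.2, 645 and 853.

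Developmental and cytokine receptors held larger shares of high genes than the G protein-coupled receptor lists, at 28.6% and 31.8%. These shares were near the 27.1% over all genes. Of 21 Frizzled, Hedgehog and Notch receptors and ligands, 6 were high, 13 moderate, 1 mixed and 1 low. NOTCH2, which acts in nephron formation, gave 2701, 2533 and 2708. The Wnt receptors FZD3 and FZD6 gave 1581, 1246 and 1368 and 1366, 1289 and 1198, and the co-receptor LRP6 gave 1319.7, 1207 and 1297. Of 44 cytokine, death and TGF-beta family receptors, 14 were high, 23 moderate, 2 mixed and 5 low. The interferon-gamma receptor chain IFNGR2 gave 3668, 3531 and 3194, IL6ST (the shared gp130 chain) gave 2229.6, 2228 and 1699, and the death receptor TNFRSF10B gave 2069.9, 1927 and 1753. They were high on every array. The erythropoietin receptor EPOR gave 1806, 1039.6 and 2025, and replicate 2 lay apart from the other cultures.

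Of 32 innate sensors and adaptors, 4 were high, 15 moderate, 4 mixed and 9 low. The kinase IRAK1, which acts downstream of Toll-like receptors, gave 14538, 14671 and 12602, and the adaptor MAVS gave 1526, 1507 and 1998. The DNA sensor IFI16 gave 1333, 1457 and 1374. IRAK1, MAVS and IFI16 were high in each culture. The Toll-like receptors named here were not high. TLR2 gave 102, 14.4 and 30.5, TLR4 gave 94.4, 84.98 and 108 and TLR3 gave 77.6, 97.5 and 78.9. TLR5, the flagellin receptor, was moderate at 194, 199 and 283, near the upper end of the controls. STING1, the adaptor of cyclic dinucleotides, gave 618, 549 and 673.

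Of 40 nuclear receptors, 6 were high, 25 moderate, 2 mixed and 7 low. The glucocorticoid receptor NR3C1 gave 3356, 3353 and 3133 (mean 3281 ± 128), and the orphan receptors NR2F6 and NR2F1 gave 2215, 2287 and 1833 and 2144, 1995 and 1658. PPARG, the receptor of fat cell differentiation, was moderate at 451, 535 and 400.4, and the oestrogen receptor ESR1 gave 99.1, 195 and 151. AHR, a ligand-activated factor outside this superfamily that was listed with it, gave 706, 724 and 323, and its signal on replicate 3 was less than 0.5 of that on either other array.

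Metabolic genes were high more often than the array as a whole, 50.8% against 27.1% of all genes, and low less often, 12.7% against 22.2%. These shares are a description of the lists chosen. Of 32 genes of glycolysis, 20 were high, 8 moderate and 4 low. GAPDH gave 26784, 31396 and 43453 (mean 33878 ± 8607), and enolase (ENO1) gave 29391, 33255 and 34207. The lactate dehydrogenase chains LDHA and LDHB gave 23608, 28162 and 29433 (mean 27068 ± 3063) and 27926, 32249 and 35848. They were lowest on replicate 1 and highest on replicate 3. Alternative forms of an enzyme were in different classes. The pyruvate kinase gene of proliferating cells, PKM, gave 17006, 18106 and 18845, whereas the liver and erythrocyte form PKLR was low at 42.99, 87.7 and 48.6. The hexokinase genes HK1 and HK2 gave 3869.9, 3474 and 3864 and 1613, 1444 and 1501.

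The tricarboxylic acid cycle list had 20 of 24 genes high, 4 moderate and none low. Malate dehydrogenase (MDH2) gave 17714, 18170.1 and 18798, and citrate synthase (CS) gave 11398, 11366 and 11589 (mean 11451 ± 120.5). Both differed between cultures by ratios of at most 1.06. The dehydrogenase IDH2 gave 1546, 1625 and 3515 and was highest on replicate 3. Of 9 genes of the pentose phosphate pathway, 6 were high, with transketolase (TKT) at 10382, 10385 and 9436 and PGD at 6026, 5571 and 4938.

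Of 15 genes of gluconeogenesis and glycogen, 5 were high, 7 moderate and 3 low. PCK1, the cytosolic form of the first gluconeogenic enzyme, gave 121, 139 and 158, and FBP1 gave 93.9, 125 and 196. G6PC1, which releases free glucose, gave 143, 156 and 174. These 3 genes lay under 203 on every array. The mitochondrial form PCK2 gave 616, 579 and 2249 and was high through replicate 3. Of the urea cycle enzymes, CPS1, which starts the urea cycle, gave 251, 237 and 147, while ASS1, which makes argininosuccinate in many cells, gave 1989.8, 1781 and 4225.

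Synthesis of lipids, nucleotides and amino acids was represented by many high genes. Of 22 genes of cholesterol synthesis and uptake, 16 were high, 5 moderate, 1 mixed and none low. Squalene epoxidase (SQLE) gave 8304, 8815 and 11501, and the sterol sensor INSIG1 gave 9615, 10848 and 7298. SQLE was highest on replicate 3 and INSIG1 lowest there. Of 37 genes of fatty acid synthesis and oxidation, 17 were high, 15 moderate, 1 mixed and 4 low. ATP citrate lyase (ACLY) gave 15590.1, 16415 and 18031, and fatty acid synthase (FASN) gave 12408, 12908 and 13012 (mean 12776 ± 323) on 1 of its 2 probe sets. Of 37 enzymes of amino acids, one-carbon units and the urea cycle, 25 were high, 5 moderate, 2 mixed and 5 low. Thymidylate synthase (TYMS) gave 15519, 17167 and 17804, ornithine decarboxylase (ODC1) gave 14399.7, 14567 and 13047, and glutamine synthetase (GLUL) gave 12414, 13856 and 13802.

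Among 37 transporters of sugars, amino acids and lactate, 14 were high, 16 moderate, 1 mixed and 6 low. The glutamine transporters SLC38A2 and SLC1A5 gave 6685, 7657 and 9782 and 5518, 5046 and 6053. The general glucose transporter SLC2A1 was moderate at 842, 895 and 744 (mean 827 ± 76.3), whereas the liver form SLC2A2 and the insulin-regulated form SLC2A4 were low at 12.6, 3.17 and 8.44 and 11.4, 5.56 and 21.2. Of 39 genes of drug metabolism and transport, 5 were high, 24 moderate, 1 mixed and 9 low. The efflux pumps ABCB1 and ABCC1 gave 1117, 1138 and 1063 (mean 1106 ± 38.9) and 1213, 1266 and 1183, nearly equal in the 3 cultures. The sulfotransferase SULT1A1 gave 1537, 1609.5 and 2657.

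The spread between the cultures was examined next. The highest array exceeded the lowest by a median ratio of 1.20 over 5356 high genes and of 1.39 over 8720 moderate genes. Of 14076 genes with a mean of 100 or more, 9.16% had a ratio of at least 2. Among listed genes this held for 12 of 272 high genes and for 93 of 536 moderate genes. Over all genes it held for 57 of 5356 high and 1232 of 8720 moderate genes.

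Single arrays were then set beside the other cultures for brighter genes. Of 7981 genes with a mean of 500 or more, 42 were at least 2 times as high on replicate 3 as the mean of the other cultures, and 27 were at 0.5 of it or less. For replicate 1 these counts were 2 and 12, and for replicate 2 they were 0 and 13. A gene much higher on replicate 3 raises the mean that replicates 1 and 2 are set beside. Such a gene can also count as lower on these 2 arrays, so the counts are not independent. After quantile normalization, an alternative chosen after the data were seen, 50 genes were higher and 27 lower on replicate 3. MGST1, a glutathione transferase of membranes, gave 212, 216 and 2128. SCIN, an actin-severing protein, gave 9111, 9738 and 1093, and butyrylcholinesterase (BCHE) gave 759.8, 757 and 84.02. The pseudogene DUXAP10 gave 849, 933 and 109. For these 4 genes replicates 1 and 2 were close to each other and replicate 3 differed by a factor of more than 5 from both. On the HEK293-PRL-1 arrays the same probe sets gave 8018 and 7659 for MGST1, 717 and 801 for SCIN, 9.47 and 30.7 for BCHE and 284 and 349 for DUXAP10. TAF15, an RNA-binding protein, gave 286, 861 and 1332 and differed between all cultures.

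Several of the genes highest on replicate 3 belong to the amino acid response, in which cells that lack an amino acid or are otherwise stressed raise the factor ATF4 and its targets. A list of 42 such genes was drawn up from general knowledge after values of this array had been seen, so its counts are a description. Of 39 with a mean of 100 or more, 36 were higher on replicate 3 than the mean of replicates 1 and 2, which held for 55.9% of all 14076 genes, and 18 were at least 2 times as high. None was at 0.5 or less. The median log2 ratio was 0.96, against 0.06 over all 14076 genes, of which 435 (3.09%) were at least 2 times as high. After quantile normalization the medians were 0.97 and 0.0039, with 19 of the 39 genes and 249 of all genes at least 2 times as high, and 252 of all genes at 0.5 or less in place of 153.

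Asparagine synthetase (ASNS) gave 5895, 6141 and 20598 (mean 10878 ± 8419), though only 1 of its 2 probe sets had a mean of 100 or more. CHAC1, an enzyme that degrades glutathione, gave 175, 167 and 1397. The cystine transporter SLC7A11 gave 877, 843 and 3488, and DDIT4, an inhibitor of mTOR signalling, gave 2991, 3090.0 and 12256. Each was more than 3 times as high on replicate 3 as on either other array. TRIB3, a pseudokinase induced by ATF4, gave 1509, 1403 and 3799. PHGDH, the first enzyme of serine synthesis, gave 5089, 4570.0 and 11029, and ATF4 itself gave 13015, 12909.7 and 20929. On the HEK293-PRL-1 arrays ASNS gave 6196 and 6309, SLC7A11 gave 955 and 676 and DDIT4 gave 3488 and 3043. Those values lay near replicates 1 and 2.

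Cytosolic aminoacyl-tRNA synthetases were listed in the same way. Of 17 measured, 12 were higher on replicate 3 (70.6%, against 55.9% of all genes), none by a ratio of 2 or more, and the median log2 ratio was 0.35. CARS1, which charges the tRNA of cysteine, gave 2538, 2439 and 4419, and SARS1, which charges that of serine, gave 3980.0, 4059.8 and 7647. RARS1, for arginine, went the other way at 6078, 6819.6 and 1981. TXNIP, a glucose-responsive inhibitor of thioredoxin, was also highest on replicate 3, at 533, 545 and 2586.

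**Figure D3:**
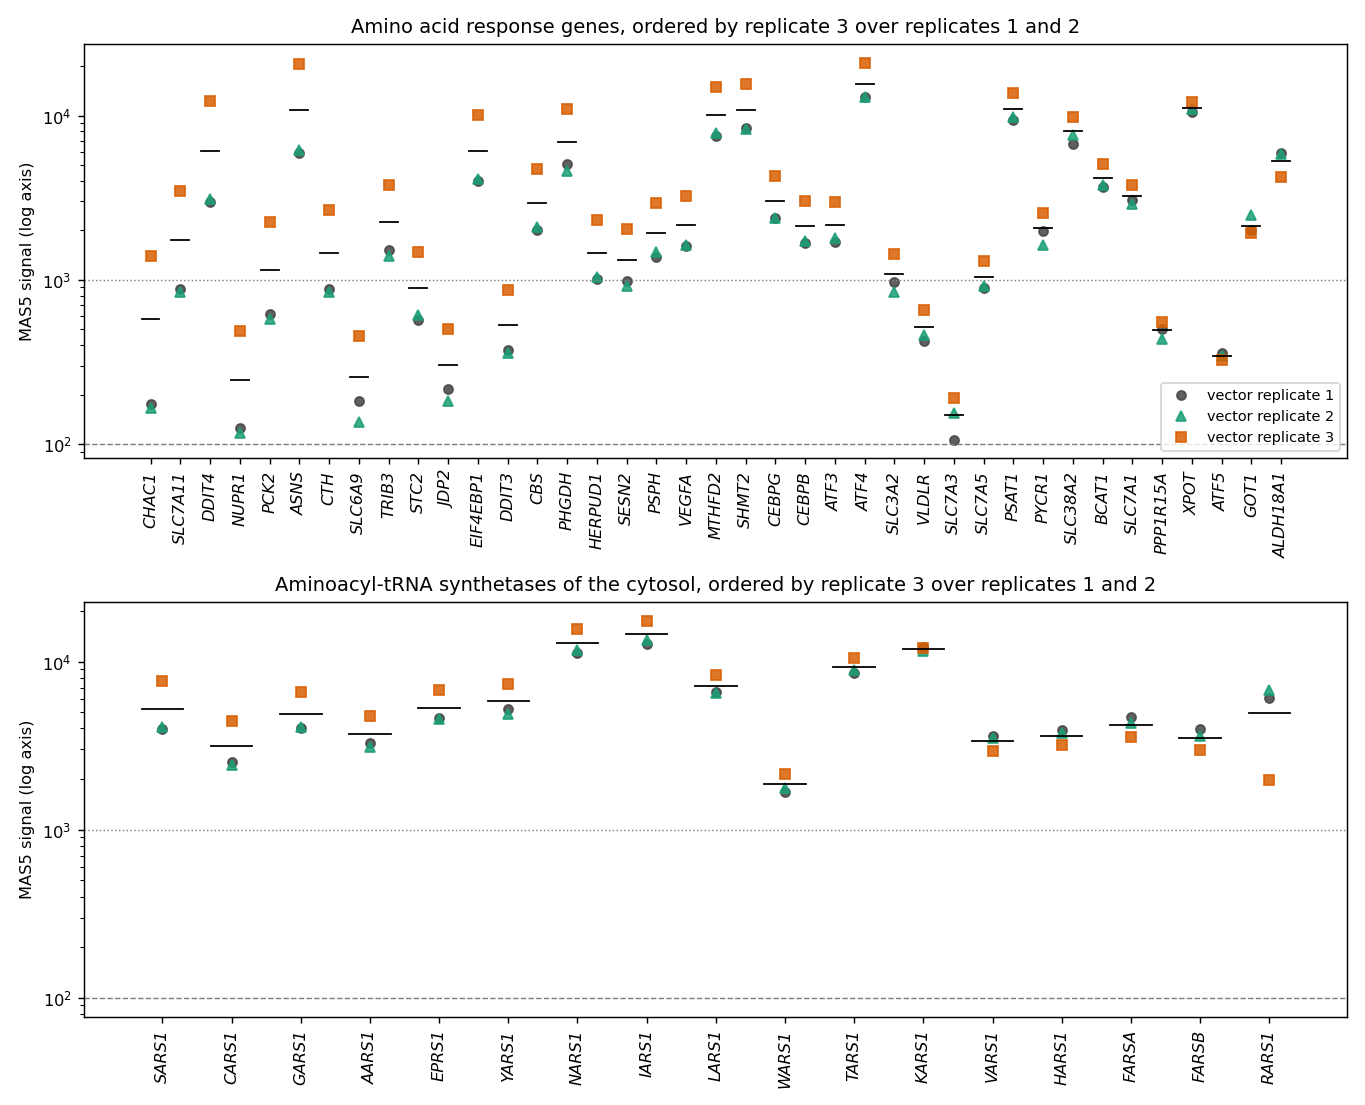
MAS5 signal (y axis, log scale) of amino acid response genes (top) and cytosolic aminoacyl-tRNA synthetases (bottom) on HEK293-vector replicates 1, 2 and 3, with the mean as a bar and the limits of 100 (dashed) and 1000 (dotted), ordered by the ratio of replicate 3 to the mean of replicates 1 and 2. Of 39 response genes 36 have replicate 3 above the mean of the other arrays, and among the synthetases RARS1 lies lowest on replicate 3.

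Leaving out replicate 3 kept 260 of the 272 listed high genes high. A low gene stays low by construction when an array is left out. The genes that crossed 1000 through replicate 3 include FN1, KRT8, PCK2, ONECUT2 and SLC7A11, whose signals on replicates 1 and 2 are all under 1000.

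The classes were then set beside the 2 HEK293-PRL-1 arrays, as levels without a contrast. Of 272 listed genes that were high in HEK293-vector cells, 248 had a mean of 1000 or more on those arrays, 22 were from 100 to 1000 and 2 were under 100. Over all genes 5087 of 5356 high genes had a mean of 1000 or more there, and 3 were under 100. The 2 listed genes under 100 were MAL2 and the amino acid transporter SLC6A15. SLC6A15 gave 1533, 1507 and 1086 on the vector arrays and 3.03 and 4.28 on the others. Of 269 low genes, 262 had a mean under 100 and 7 had a mean from 100 to 1000, and over all genes 4325 of 4398 had a mean under 100. Of the 7 listed genes, SPARC was highest, at 614 and 649.

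Promoters gave a property that the classes did not use. Many genes that most tissues use start within stretches rich in the dinucleotide CG, which elsewhere in the genome is rare because its methylated cytosine mutates, while many tissue-restricted genes start in windows poor in it. RefSeq promoter windows on GRCh38.p14, from 250 bases before to 50 after the start, were matched by symbol for the 11469 genes of the array that have exactly 1 window. The ratio of observed to expected CG was at least 0.6 in 94.8% of 3276 high genes, in 70.1% of 4897 moderate genes and in 33.7% of 2553 low genes. It was so in 67.1% of all 11469 genes, and in 47.1% of the 22114 windows of all symbols with exactly 1 window. Listed genes were alike in order, with 88.9% of 153 high, 68.9% of 267 moderate and 38.7% of 150 low genes. The motif TATAAA, searched on both strands, was in 4.55% of high, 7.66% of moderate and 17.0% of low genes, against 9.38% of all 11469 genes and 12.7% of the 22114 windows. The motif CCAAT, likewise on both strands, was in 39.8%, 36.1% and 34.4%, against 36.7% of all 11469 genes and 36.2% of the 22114 windows. A window can hold both motifs, and a match is only a match of letters.

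**Figure D4:**
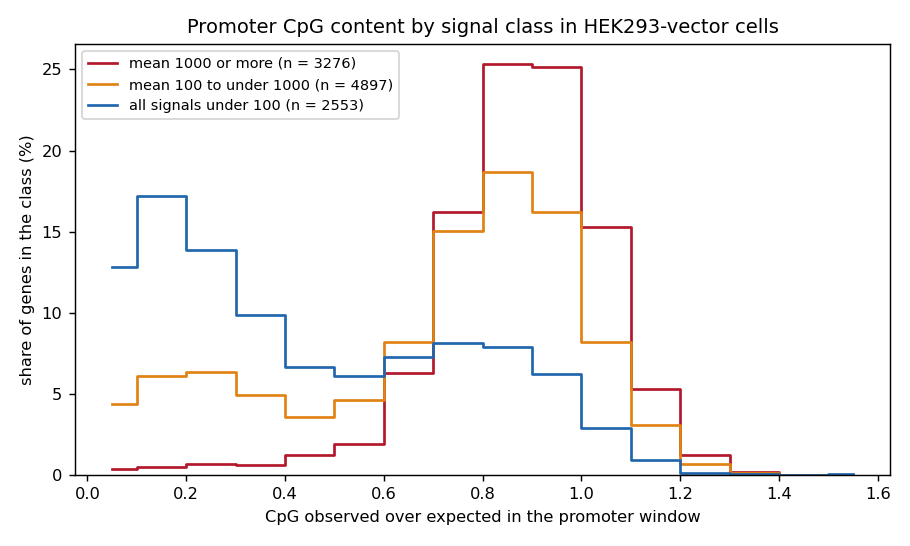
Distribution of the ratio of observed to expected CG in the promoter window (x axis) among high, moderate and low genes of HEK293-vector cells (y axis, percent of the genes of the class), for genes with exactly 1 RefSeq window. Most high genes (94.8%) lie at 0.6 or above, and most low genes lie below it.

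To show this contrast, the 250 bases before the start are given 5′ to 3′ for 4 genes described above, with each CG in capitals. ENO1 (glycolysis) and SOX2 (a factor of progenitors) were high, and NPHS1 (podocytes) and ALB (hepatocytes) were low. The stretch of ENO1 lies at chr1:8878687-8878936 on the minus strand, SOX2 at chr3:181711675-181711924 on the plus strand, NPHS1 at chr19:35852505-35852754 on the minus strand and ALB at chr4:73404037-73404286 on the plus strand, all in GRCh38.p14 of RefSeq.
ENO1: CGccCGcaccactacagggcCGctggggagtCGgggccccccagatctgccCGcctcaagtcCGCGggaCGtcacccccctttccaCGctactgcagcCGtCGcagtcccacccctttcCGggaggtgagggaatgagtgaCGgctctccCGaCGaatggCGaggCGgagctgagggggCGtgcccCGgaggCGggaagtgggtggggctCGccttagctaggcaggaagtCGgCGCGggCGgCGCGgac
SOX2: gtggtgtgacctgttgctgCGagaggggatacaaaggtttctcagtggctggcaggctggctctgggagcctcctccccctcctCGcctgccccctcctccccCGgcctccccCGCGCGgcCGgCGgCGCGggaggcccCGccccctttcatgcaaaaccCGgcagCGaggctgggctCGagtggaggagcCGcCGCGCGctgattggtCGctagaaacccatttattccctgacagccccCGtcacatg
NPHS1: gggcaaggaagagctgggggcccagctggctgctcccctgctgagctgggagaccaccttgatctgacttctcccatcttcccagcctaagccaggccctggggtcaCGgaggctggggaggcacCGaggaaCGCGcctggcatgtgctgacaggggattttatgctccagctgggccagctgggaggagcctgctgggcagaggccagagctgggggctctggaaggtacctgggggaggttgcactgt
ALB: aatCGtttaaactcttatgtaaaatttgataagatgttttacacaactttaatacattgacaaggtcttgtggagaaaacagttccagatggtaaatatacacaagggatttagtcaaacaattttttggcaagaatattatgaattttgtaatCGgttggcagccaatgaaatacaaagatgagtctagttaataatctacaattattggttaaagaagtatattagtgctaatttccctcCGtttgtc
These stretches held 27 CG in ENO1 and 20 in SOX2, but 4 in NPHS1 and 3 in ALB. GC content was 72% in ENO1, 68.8% in SOX2, 65.6% in NPHS1 and 30% in ALB, so NPHS1 was rich in G and C yet poor in CG. None held TATAAA on either strand, and CCAAT was found in SOX2 and ALB.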

How the data were processed

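HG-U133 Plus 2.0 GeneChip arrays of 3 HEK293-vector and 2 HEK293-PRL-1 cultures were read from 1 table of 54675 probe sets. The values deposited by the authors are MAS5 intensity values, linear in scale, that the Bioconductor package affy produced with its defaults. In MAS5 a mismatch-based estimate is removed from each probe, probes of a set are combined robustly and arrays are scaled. The trimmed mean (2% off each end) was 500 on every array. Small signals are therefore noisy. Presence calls were not used here. Arrays have no read depth, and their number limits the precision.

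The 62 control probe sets were set aside. Platform annotation, updated by gene identifier to GRCh38.p14 for 41037 of the 41091 probe sets with 1 symbol, gave 19775 genes. Probe sets with several symbols (1801) or not in the annotation (11721) were not named. Each gene was represented by its brightest probe set (mean of log2 signals over the vector arrays). Classes used limits of 100 and 1000, and no test was run. The class assignment was tested on simulated data with known classes. Python 3.11.15, pandas 2.3.3, numpy 2.4.6 and matplotlib 3.10.9 were used.

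The members and lists were chosen with earlier results of these data known, and the amino acid response and synthetase lists after the arrays had been examined. A rule gave the genes to name, but not all of them are named, and which were left out was decided with their values known: those that define a list, the 5 brightest high genes, the 3 brightest moderate genes and the 2 with the widest ratio (mean of 200 or more) of each list, related family members, and over the array the 15 brightest genes and the 12 widest (mean of 500 or more). SPARC, SLC6A15, SLC6A6, HOXD12, DCX, STMN2, COL4A1, LAMB1, TLR3, TLR5, genes near a limit and some members of the later lists were named after their values were seen. So were OSR1, MEOX1, WNT4, WNT9B and WNT11. Alternatives changed the probe set, the scaling, the limits and the arrays.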

Additional observations from a re-analysis of the deposited data

How the results depend on the processing

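No paired analysis was possible because only the vector group was described and no result comes from a test. Counts depended most on which probe set stood for a gene and on the limits. With the geometric mean of all probe sets, 150 of the 272 listed high genes stayed high. The high counts were 9 lineage, 2 kidney, 15 neuronal, 15 epithelial, 12 adhesion, 16 receptor, 81 metabolic and 2954 of all genes. The low counts were 71 lineage, 35 kidney, 78 neuronal, 32 epithelial, 45 adhesion, 145 receptor, 53 metabolic and 6183 of all genes. PAX8, RCOR1 and SLC6A6 went from high to low in this setting. Without probe sets marked as shared (_x_at and _s_at), fewer genes were measured. High were then 11 of 115 lineage, 6 of 69 kidney, 20 of 154 neuronal, 17 of 68 epithelial and 21 of 114 adhesion genes. So were 26 of 287 receptor, 79 of 193 metabolic and 3343 of 17098 genes in all. In this setting 9 listed genes went from high to low, among them ASNS (41.9), FN1 (63.5), FZD5 (24.3) and ADGRL2 (47.6). An upper limit of 2000 left 9 lineage, 4 kidney, 14 neuronal, 11 epithelial, 18 adhesion, 10 receptor, 85 metabolic and 2805 of all genes high. With a lower limit of 50, 24 lineage, 11 kidney, 11 neuronal, 9 epithelial, 11 adhesion, 40 receptor, 20 metabolic and 2284 of all genes were low. With a limit of 200 these counts were 80, 45, 78, 35, 42, 155, 60 and 7503.

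Quantile normalization kept 272 of 272 listed high and 263 of 269 low genes in their class, and scaling to a common median 266 and 261. Leaving out 1 array at a time gave high counts of 16 to 18 lineage, 7 to 7 kidney, 30 to 31 neuronal, 22 to 25 epithelial, 26 to 30 adhesion, 40 to 43 receptor, 123 to 129 metabolic and 5329 to 5377 of all genes. The low counts were then 52 to 56, 24 to 34, 45 to 56, 23 to 25, 24 to 26, 86 to 102, 32 to 41 and 4632 to 5223. Genes near a limit change class easily: ITGA6 had a mean of 994 and CACNA2D1 of 1006, while KCNMA1 reached 99.8 and OPRM1 had a mean of 101. Signals between 100 and 200 lie among those of the Bacillus controls, and a moderate call there does not show that a transcript was present. Why the probe sets of a gene differ was not tested.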

Other observations

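The 15 genes with the highest mean signal on the HEK293-vector arrays were 11 ribosomal protein genes, the elongation factor EEF1A1 and the mitochondrially encoded genes ND4, COX1 and COX2. RPS16, a protein of the small ribosomal subunit, gave 42219, 50565 and 67488, and ND4, a subunit of respiratory complex I, gave 36621, 43502 and 57354. All 15 were lowest on replicate 1 and highest on replicate 3, with ratios from 1.42 to 1.63. GAPDH and PTPRO had the same order of arrays, at 26784, 31396 and 43453 and 15672, 18404 and 26548.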
